A study of Mus musculus with 10 samples.

Results

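The 8 receptors described here guide where dendritic cells (DCs) move and settle, and were followed across 4 groups of splenic CD11c+ DCs: Ccr7, Ccr1, Ccr2, Ccr6, Cxcr3, Cxcr4, Cx3cr1 and Gpr183. They were taken by gene symbol, each was read by its only probe set with 1 symbol, and they are 8 of the 22180 genes so covered. All 8 were among the 13371 genes tested. The DKO CpG group (n = 3 arrays) held DCs from C3ar1-/-C5ar1-/- mice, which lack both receptors for the complement fragments C3a and C5a, 4 h after injection of 100 µg CpG. CpG is unmethylated DNA that Tlr9 recognises. The WT CpG group (n = 3) held DCs from WT mice given the same injection, while the DKO unstimulated (n = 2) and WT unstimulated (n = 2) groups had received vehicle. All DCs were taken out of the spleen with magnetic beads, so each array read a CD11c-enriched mixture, and both targeted genes were missing from the whole animal. The sources used here do not give strain, age, sex or whether an array stands for 1 mouse, so p-values measure only the spread between these samples.

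Chemokine receptors are G protein-coupled receptors that steer cells up gradients of small secreted proteins. Ccr7 binds Ccl19 and Ccl21 and draws maturing DCs to the T cell zone, and Gpr183 (Ebi2) binds oxysterols and holds DCs in the bridging channels of the spleen. Ccr1 and Ccr2 bring myeloid cells to inflamed sites, Ccr6 answers Ccl20, Cxcr3 answers Cxcl9, Cxcl10 and Cxcl11, Cxcr4 answers Cxcl12, and Cx3cr1 binds fractalkine (Cx3cl1). In textbook accounts, mature DCs gain Ccr7 and lose receptors for inflammatory chemokines.

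Values below are RMA log2 intensities, and array medians lay near 5.5, the highest at 5.56. Levels were set against each other only within a gene. Over the tested genes, the 8 pairs of arrays within a group correlated at 0.964 to 0.989, and the 37 pairs across groups at 0.905 to 0.983. C3ar1 measured 5.61, 5.55 and 5.34 in DKO CpG and 5.64 and 5.27 in DKO unstimulated DCs, against 6.14, 6.31 and 6.59 in WT CpG and 5.95 and 5.80 in WT unstimulated DCs. C5ar1 lay between 4.42 and 4.99 in the 5 DKO arrays and between 5.51 and 7.32 in the 5 WT arrays, so neither gene overlapped between genotypes. The differences averaged over stimulation were -0.63 (limma adjusted p = 0.0888) and -1.53 (0.0786), and where the probes lie relative to the deletions is not stated. A set of 3 DKO arrays (CpG 1, CpG 2 and unstimulated 1) carried Y-linked signal and low Xist, the pattern of male cells. The other 2 DKO arrays (CpG 3 and unstimulated 2) and all WT arrays had the reverse, the pattern of female cells. These same 2 DKO arrays, with WT CpG 3, have sample titles of a second number series, so within DKO the title series and the Y-linked signal cannot be told apart. The mean of the 14 splenic macrophage markers was also low in these 2 DKO arrays, at 8.25 and 8.39, against 9.88 to 10.1 in the other 3 DKO arrays and 9.79 to 10.2 in the WT arrays.

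After CpG, Ccr7 was the receptor that rose beyond the test's threshold in both genotypes, and Ccr2, Ccr6, Cxcr3 and Cx3cr1 fell in both. With the CpG effect averaged over the genotypes, Ccr1 and Gpr183 also rose, and Cxcr4 did not pass. The 3 rises and 4 falls among 8 receptors stand against a background in which 29.8% of all tested genes were called, 11.2% higher and 18.6% lower. Their median change was -0.42, against -0.03 over all tested genes. In DKO DCs 1 receptor rose and 4 fell, against a background of 10.3% (4.54% higher and 5.76% lower). In WT DCs 1 rose and 4 fell as well, against 21.6% (8.24% higher and 13.3% lower). The groups did not overlap for 6 of 8 receptors in DKO DCs (37.7% of all tested genes) and for 8 of 8 in WT DCs (52.4%). Within title series 1 alone the averaged count was again 3 and 4 (background 29.6%), and over the 7 arrays with no Y-linked signal it was 2 and 4 (21.9%), Ccr1 being the receptor lost. In those 7 arrays only Ccr7 passed in DKO DCs (1 of 8, background 3.05%). There each DKO group is 1 array, as is DKO unstimulated within title series 1, and a lone array is assumed to vary like those of the other groups. Ccr7 also rose in DKO DCs under the alternatives that follow, but fewer receptors fell. None fell in a fit of the 5 DKO arrays alone (background 3.01%), only Cx3cr1 with no filter on low values (4.89%), Cx3cr1 and Ccr6 with array weights (9.18%), and Cx3cr1 and Ccr2 with quantile normalization (9.69%). In WT DCs all 4 falls were called under every alternative run other than leaving out a single WT array. With the title series as a block, Ccr1 and Gpr183 also rose in WT DCs (background 24.8%).

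**Figure D1:**
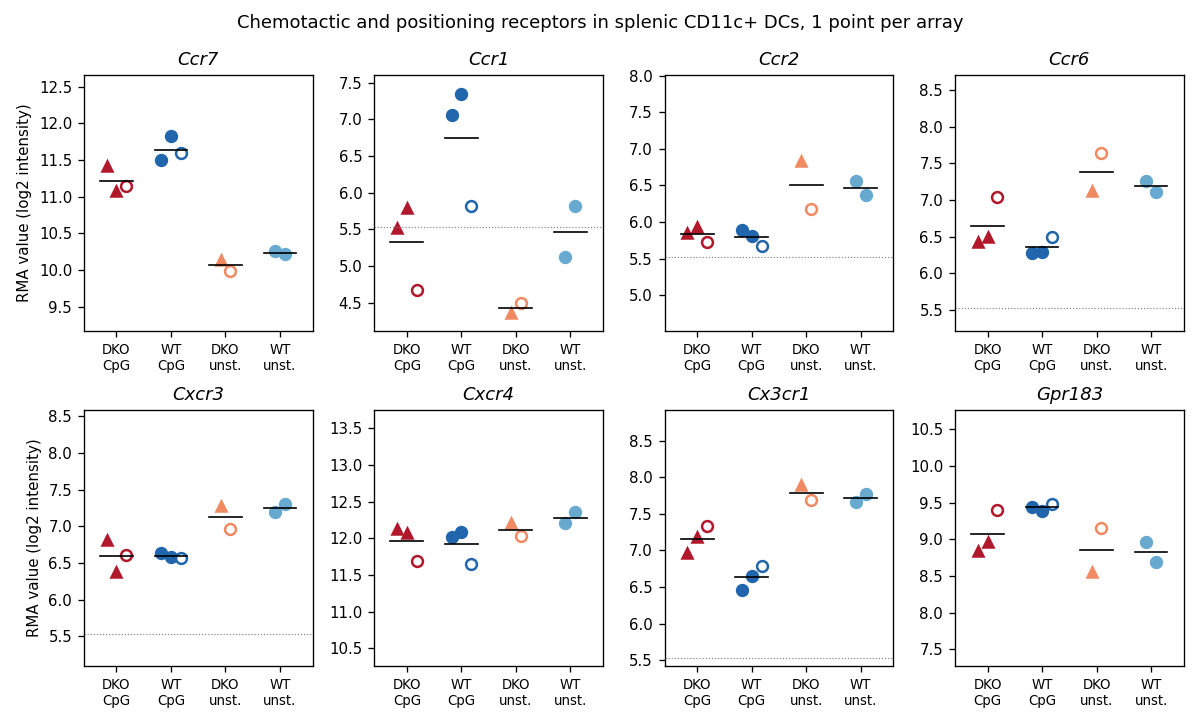
Each panel gives the log2 intensity of 1 receptor by array, with the groups along the x axis, 1 point per array and a bar at the group mean. Every panel spans the same 3.5 log2 units; open symbols are arrays of the second title series, triangles are arrays with Y-linked signal, and the dotted line, where in range, is the mean array median. Ccr7 sits at 11.07 or above in the 6 CpG arrays and at 10.25 or below in the 4 unstimulated arrays, while Cxcr4 stays between 11.65 and 12.35 in all of them.

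Ccr7, the receptor for the T cell zone chemokines, measured 11.41, 11.07 and 11.14 in DKO CpG DCs, against 10.14 and 9.99 in DKO unstimulated DCs. In WT CpG DCs it measured 11.50, 11.83 and 11.59, against 10.25 and 10.21 in WT unstimulated DCs. Every CpG array was above every unstimulated array, and the WT CpG arrays were the highest of all. The rise was 1.14 ± 0.14 (SE) in DKO DCs (adjusted p = 0.00137, limma) and 1.41 ± 0.14 in WT DCs (adjusted p = 0.000166), or 2.21-fold and 2.65-fold. Averaged over genotypes it was 1.28 ± 0.10 (adjusted p = 1.8e-05). Leaving out any of the 10 arrays kept the averaged value between 1.22 and 1.31. In a bulk sample, more transcript per cell and more cells of a type that carries it cannot be told apart, and this holds for every receptor here.

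Ccr1, a receptor for Ccl3, Ccl5 and related chemokines of inflamed tissue, had the widest spread of the 8 within both CpG groups. Its values were 5.52, 5.79 and 4.67 in DKO CpG DCs, against 4.37 and 4.50 in DKO unstimulated DCs. The WT values were 7.06, 7.35 and 5.81 after CpG, against 5.13 and 5.81 without. Both genotypes had higher values after CpG with no overlap, though WT CpG 3 and WT unstimulated 2 both rounded to 5.81, and 5 of the 10 values lay below their array's median. Averaged over genotypes Ccr1 rose by 1.08 ± 0.31 (adjusted p = 0.022), a call that was lost without WT unstimulated 1 (adjusted p = 0.101), WT CpG 1 (0.0532), DKO unstimulated 1 (0.0652) or DKO unstimulated 2 (0.0523). Neither genotype passed alone, with 0.90 ± 0.44 in DKO DCs (adjusted p = 0.234) and 1.27 ± 0.44 in WT DCs (0.062). Without WT CpG 3 the WT value was 1.74 (adjusted p = 0.008), and without DKO CpG 3, which changes only the shared spread, 1.27 also passed (0.0332). The WT value further passed when the title series was a block (1.55, adjusted p = 0.00467), with the Y-linked covariate (0.0363) and with array weights (0.0165). It also passed in a fit of the 5 WT arrays alone (0.0426). Over the arrays with no Y-linked signal the WT result is that of the same fit, since the lone DKO arrays add no spread. Within title series 1 the WT value was 1.74. The DKO value passed within title series 1 (1.29, adjusted p = 0.021), where DKO unstimulated is 1 array, and under no other alternative run. The CpG arrays of the second title series were the lowest of their groups: within that series the DKO difference was 0.17 (1 array each), against 1.29 in the first series (2 arrays and 1).

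The 4 receptors that fell serve different routes: Ccr2 brings cells in from the blood towards Ccl2 and Ccl7, Ccr6 leads cells towards mucosal epithelium, Cxcr3 is a receptor of interferon-driven inflammation, and Cx3cr1 marks monocytes and some resident DCs. Cx3cr1 measured 6.97, 7.18 and 7.33 in DKO CpG DCs, against 7.89 and 7.69 in DKO unstimulated DCs. In WT DCs the values were 6.45, 6.66 and 6.79 after CpG, against 7.66 and 7.78 without. All 6 CpG arrays were below all 4 unstimulated arrays, and the 3 WT CpG arrays were lowest. Cx3cr1 fell by 0.63 in DKO DCs (SE 0.15, adjusted p = 0.0228) and by 1.09 in WT DCs (SE 0.15, adjusted p = 0.000655). The WT call held without any single array. The DKO call was lost without DKO unstimulated 1 (adjusted p = 0.129), DKO unstimulated 2 (0.0675), DKO CpG 1 (0.0707) or DKO CpG 2 (0.0516), and in a fit of the 5 DKO arrays alone (0.087).

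Cxcr3, the receptor of Cxcl9, Cxcl10 and Cxcl11, measured 6.81, 6.38 and 6.61 in DKO CpG DCs, against 7.28 and 6.97 in DKO unstimulated DCs. The WT CpG values of 6.63, 6.59 and 6.57 were close together, against 7.19 and 7.30 in WT unstimulated DCs. No CpG array reached an unstimulated one. Cxcr3 fell by 0.52 in DKO DCs (SE 0.15, adjusted p = 0.0469) and by 0.65 in WT DCs (SE 0.15, adjusted p = 0.0101). The WT call was lost without WT unstimulated 2 (adjusted p = 0.0876). In DKO DCs it held only when DKO CpG 1 was left out, and leaving out each of the other 9 arrays gave an adjusted p of 0.0595 to 0.249. The DKO call was also lost with no filter (0.072), array weights (0.0505), quantile normalization (0.0834), in a fit of the DKO arrays alone (0.163) and within title series 1 (0.0619).

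Ccr6, the receptor of Ccl20, measured 6.42, 6.49 and 7.04 in DKO CpG DCs, against 7.12 and 7.63 in DKO unstimulated DCs. WT CpG DCs had 6.28, 6.29 and 6.49, against 7.26 and 7.11 in WT unstimulated DCs. Here too every CpG array was below every unstimulated array, with DKO CpG 3 nearest to them. Ccr6 fell by 0.73 in DKO DCs (SE 0.20, adjusted p = 0.0475) and by 0.83 in WT DCs (SE 0.20, adjusted p = 0.0151). In WT DCs the call was lost without WT unstimulated 1 (0.115) or WT unstimulated 2 (0.067). In DKO DCs it held without DKO unstimulated 1 and without DKO CpG 3, while leaving out each of the other 8 arrays gave an adjusted p of 0.058 to 0.308. Without DKO unstimulated 2 the DKO change was -0.47. The DKO call was also lost with no filter (0.0668), quantile normalization (0.0805) and in a fit of the DKO arrays alone (0.155).

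Ccr2, the receptor by which Ccl2 draws monocytes from bone marrow and blood, measured 5.86, 5.94 and 5.74 in DKO CpG DCs, against 6.84 and 6.18 in DKO unstimulated DCs. It measured 5.89, 5.81 and 5.68 in WT CpG DCs, against 6.57 and 6.38 in WT unstimulated DCs. The CpG arrays were tightly grouped at 5.68 to 5.94, just above the array medians, and all unstimulated arrays were higher. Ccr2 fell by 0.67 in DKO DCs (SE 0.18, adjusted p = 0.0386) and by 0.68 in WT DCs (SE 0.18, adjusted p = 0.0206). The WT call was lost without WT unstimulated 1 (0.155), WT unstimulated 2 (0.0695) or WT CpG 3 (0.062). In DKO DCs it held without WT CpG 3 and without DKO unstimulated 2, and leaving out each of the other 8 arrays gave an adjusted p of 0.0571 to 0.239. Without DKO unstimulated 1 the DKO change was -0.34. The DKO call was also lost with no filter (0.056), array weights (0.0532) and in a fit of the DKO arrays alone (0.134). Averaged over genotypes, Cx3cr1 fell by 0.86 (adjusted p = 0.000184), Ccr6 by 0.78 (0.00237), Ccr2 by 0.67 (0.00252) and Cxcr3 by 0.58 (0.00183), and all 4 calls held without any single array.

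Promoter sequences were read so that receptors that changed in the same or in opposite directions can be compared for shared motifs. The set of RefSeq promoters used here (GRCm38.p6) gave 8 entries for 7 of the 8 receptors, and no entry of that set was used for Ccr7. The 250 bases before the start were searched on both strands for 5 motifs: kappaB (GGG and CC with any 5 bases between them), GAS (TTCNNNGAA), ISRE (GAAA and GAAA with any 2 bases between them), AP-1 (TGANTCA) and PU.1 (GAGGAAG). The 4 shown hold a match, in capitals on the strand printed, which is the gene's own. They are Ccr1 at chr9:123968693-123968942 (minus strand) and 3 receptors that fell: Cx3cr1 at chr9:120068297-120068546 (minus), Cxcr3 at chrX:101734148-101734397 (minus) and the first of 2 Ccr6 starts at chr17:8235793-8236042 (plus). Capitals mark kappaB in Ccr1 and Cx3cr1, kappaB and then PU.1 in Cxcr3, and PU.1 followed by a pair of GAS matches in Ccr6.
Ccr1: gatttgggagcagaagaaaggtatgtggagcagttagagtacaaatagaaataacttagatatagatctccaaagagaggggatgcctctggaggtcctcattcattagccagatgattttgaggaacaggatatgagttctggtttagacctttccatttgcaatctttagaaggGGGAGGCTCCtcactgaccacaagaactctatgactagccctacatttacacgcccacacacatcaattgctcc
Cx3cr1: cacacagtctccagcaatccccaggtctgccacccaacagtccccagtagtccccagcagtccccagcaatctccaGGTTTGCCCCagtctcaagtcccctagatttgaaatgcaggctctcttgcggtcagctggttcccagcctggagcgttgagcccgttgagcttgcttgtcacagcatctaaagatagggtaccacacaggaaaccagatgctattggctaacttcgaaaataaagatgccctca
Cxcr3: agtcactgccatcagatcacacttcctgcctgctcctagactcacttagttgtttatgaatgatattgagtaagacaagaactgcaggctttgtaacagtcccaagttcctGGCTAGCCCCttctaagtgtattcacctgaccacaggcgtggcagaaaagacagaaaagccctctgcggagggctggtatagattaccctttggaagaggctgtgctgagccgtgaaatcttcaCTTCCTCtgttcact
Ccr6: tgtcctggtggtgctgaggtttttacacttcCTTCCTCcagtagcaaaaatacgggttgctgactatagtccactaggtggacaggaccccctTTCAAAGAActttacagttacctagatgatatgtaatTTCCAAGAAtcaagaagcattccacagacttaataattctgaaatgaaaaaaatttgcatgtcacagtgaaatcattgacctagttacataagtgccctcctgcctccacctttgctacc
The kappaB letters were in 4 of the 8 entries (Ccr1, Cx3cr1, Cxcr3 and the second Ccr6 start), against 45.8% of 32851 promoters of the same length. Of the receptors that rose in the averaged comparison, Ccr1 held them, Gpr183 did not and Ccr7 was not read. Of those that fell, Cx3cr1, Cxcr3 and Ccr6 held them and Ccr2 did not. GAS was in 1 entry (7.02% of all promoters) and PU.1 in 2 (10.6%). ISRE (2.98%) and AP-1 (6.75%) were in none of these windows. The second Ccr6 start held 2 overlapping kappaB matches, GGGGAATTCC and GGGAATTCCC, which start 1 base apart and both read on the gene's own strand. A match describes letters and does not show that a factor binds.

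Gpr183 and Cxcr4, which hold cells in place within lymphoid tissue, had the smallest averaged changes. Gpr183 measured 8.85, 8.97 and 9.40 in DKO CpG DCs, against 8.56 and 9.15 in DKO unstimulated DCs, which overlapped. In WT DCs it measured 9.45, 9.38 and 9.48 after CpG, against 8.97 and 8.69 without, with no overlap. The averaged rise was 0.41 ± 0.14 (adjusted p = 0.0493). That call held without DKO CpG 1 and without DKO unstimulated 2, and leaving out each of the other 8 arrays gave an adjusted p of 0.0607 to 0.194. Without DKO unstimulated 1 the value was 0.27. Within genotypes the change was 0.22 in DKO DCs (95% interval -0.23 to 0.66) and 0.61 in WT DCs (0.17 to 1.06, adjusted p = 0.0527). The WT value passed without DKO unstimulated 1 (0.0298), DKO unstimulated 2 (0.0298) or DKO CpG 3 (0.0254), and in a fit of the 5 WT arrays alone (0.00735). It passed as well when the title series was a block (0.49, adjusted p = 0.0393), with the Y-linked covariate (0.00373) and with array weights (0.0145). Trend and robust eBayes (0.0415) and the stricter filter (0.0449) also gave a pass. Within title series 1 the WT value was 0.59. Over the arrays with no Y-linked signal the WT result is that of the 5 WT arrays alone, since the lone DKO arrays add no spread.

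Cxcr4, the Cxcl12 receptor best known for retaining cells in bone marrow, measured 12.13, 12.07 and 11.69 in DKO CpG DCs, against 12.20 and 12.04 in DKO unstimulated DCs. It measured 12.02, 12.08 and 11.65 in WT CpG DCs, against 12.20 and 12.35 in WT unstimulated DCs. In both genotypes the low CpG value came from the array of the second title series. The averaged difference was -0.26 (95% interval -0.52 to 0.01, adjusted p = 0.144), and no array left out made it pass.

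**Figure D2:**
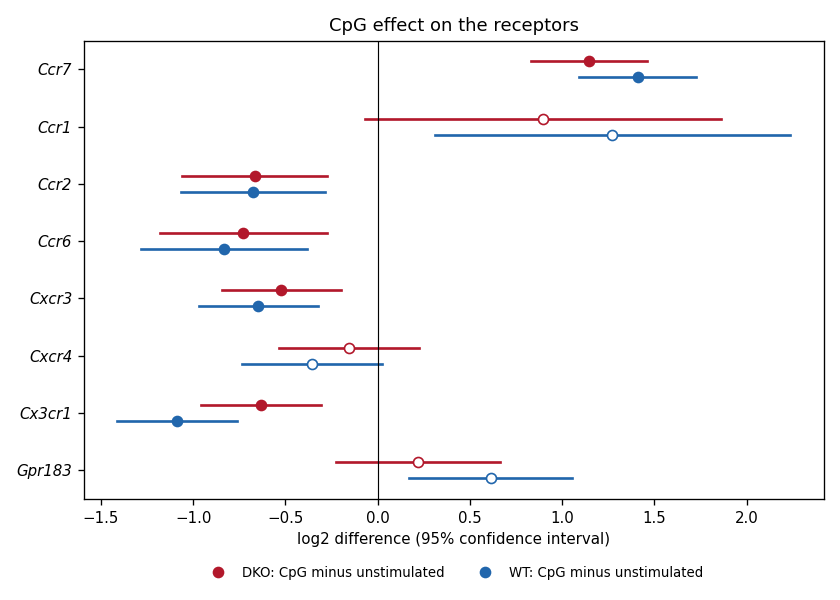
CpG minus unstimulated for the 8 receptors on the log2 scale, with the DKO estimate above the WT estimate; lines are 95% confidence intervals and filled points have an adjusted p under 0.05. Ccr7 lies to the right of 0 in both genotypes, Ccr2, Ccr6, Cxcr3 and Cx3cr1 lie to the left, and the intervals of the genotypes overlap for every receptor.

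None of the 8 receptors passed in the comparison of DKO with WT DCs after CpG, where 0.12% of all tested genes were called. At an unadjusted p under 0.05 there were 3 of 8, against 1918 of the 13371 tested genes: Ccr1, Ccr7 and Cx3cr1. Those 3 were also the receptors whose groups did not overlap, against 19.2% of all tested genes. Ccr1 averaged 5.33 ± 0.58 in DKO CpG and 6.74 ± 0.82 in WT CpG DCs (SD, n = 3 each), a difference of -1.42 ± 0.39 (SE, adjusted p = 0.135). Ccr7 averaged 11.21 ± 0.18 in DKO CpG and 11.64 ± 0.17 in WT CpG DCs (SD), a difference of -0.43 ± 0.13 (adjusted p = 0.159). Cx3cr1 averaged 7.16 ± 0.18 in DKO CpG and 6.63 ± 0.17 in WT CpG DCs (SD), a difference of 0.53 ± 0.13 (adjusted p = 0.105). The Ccr7 difference was -0.43 within the first title series (2 arrays each) and -0.45 within the second (1 each), and that of Cx3cr1 was 0.52 and 0.54.

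For Ccr1 the within-series differences were -1.55 and -1.14, and the call depended on how the arrays were handled. Ccr1 passed when the title series was a block (-1.42, adjusted p = 0.0335, background 2.21%), with Y-linked signal as a covariate (-1.75, adjusted p = 0.0468, background 5.52%), within title series 1 (-1.55, adjusted p = 0.0171, background 0.673%) and over the arrays with no Y-linked signal (-2.07, adjusted p = 0.0485, background 5.41%), where DKO CpG is 1 array. Ccr6 differed by 0.30 ± 0.18 after CpG (adjusted p = 0.501). It passed with the Y-linked covariate (0.67, adjusted p = 0.017) and over the arrays with no Y-linked signal (0.69, adjusted p = 0.0425), where DKO CpG 3 is the only DKO CpG array. Gpr183 was at -0.37 (95% interval -0.76 to 0.03), Ccr2 at 0.05 (-0.30 to 0.40) and Cxcr4 at 0.04 (-0.30 to 0.38). Cxcr3 averaged 6.60 in both, with an interval of -0.29 to 0.29.

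Without stimulation no receptor passed either, none had an unadjusted p under 0.05, and 0.00748% of all genes were called. Groups did not overlap for 2 of 8 receptors, Ccr1 and Ccr7, against 34.2% of all tested genes. Ccr1 averaged 4.43 ± 0.09 in DKO and 5.47 ± 0.48 in WT unstimulated DCs (SD, n = 2 each), a difference of -1.04 (95% interval -2.09 to 0.02). For the other 7 receptors the differences lay between -0.17 and 0.19. Averaged over stimulation none passed (background 0.0972%), with Ccr1 at -1.23 ± 0.31 (adjusted p = 0.202). That value passed without WT CpG 3 (-1.46, adjusted p = 0.0422) and with the Y-linked covariate (-1.52, adjusted p = 0.0336, background 6.5%), within title series 1 (-1.33, 0.012, background 0.441%, with 1 DKO unstimulated array) and over the arrays with no Y-linked signal (-1.52, 0.039, background 7.38%, with 1 array in each DKO group). Ccr6, at 0.25 over all arrays, passed with the covariate (0.57, adjusted p = 0.0108) and was at 0.05 within title series 1. For Ccr1 and Ccr6 alike, the covariate fit and the fit over the arrays with no Y-linked signal give the same averaged estimate. Each takes the DKO level from DKO CpG 3 and DKO unstimulated 2, so these are not separate results.

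The difference between the CpG effects of the genotypes, DKO minus WT, passed for none of the 8 receptors, and none had an unadjusted p under 0.05 (background 0.00748%). Cx3cr1 came nearest, at 0.45 ± 0.21 (unadjusted p = 0.0515, adjusted p = 0.871). The Ccr7 estimate was -0.26 (95% interval -0.71 to 0.18) and that of Gpr183 -0.39 (-1.02 to 0.23).

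**Figure D3:**
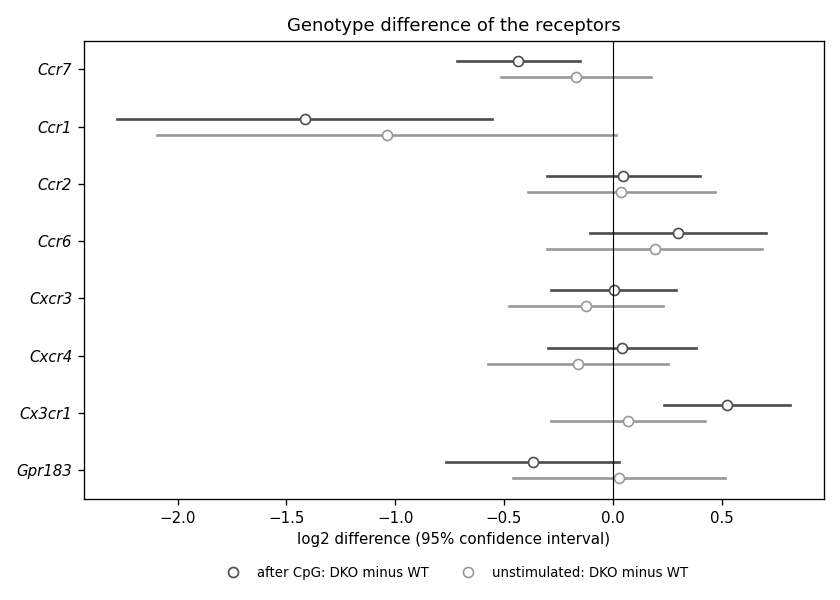
DKO minus WT for the 8 receptors on the log2 scale, with the estimate after CpG above the unstimulated one; lines are 95% confidence intervals and open points did not pass an adjusted p under 0.05. After CpG the intervals of Ccr1 (-2.28 to -0.55), Ccr7 (-0.72 to -0.15) and Cx3cr1 (0.24 to 0.81) exclude 0, and no receptor passes after adjustment.

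Of the marker lists of other cells, that of neutrophils moved with Ccr1 and that of B cells with Ccr6. The mean of the 15 neutrophil markers lay at 5.35 to 6.54 in DKO CpG, 6.62 to 8.06 in WT CpG, 5.38 to 5.71 in DKO unstimulated and 6.55 to 7.05 in WT unstimulated arrays. The order of arrays was nearly that of Ccr1: WT CpG 2 and WT CpG 1 were highest for both, and DKO CpG 3 and both DKO unstimulated arrays were lowest. Of the 12 neutrophil markers tested none passed between genotypes averaged over stimulation (8 had an unadjusted p under 0.05), and their median difference was -1.39. S100a8, a calcium-binding protein abundant in neutrophils, measured 9.10, 8.27 and 4.82 in DKO CpG against 10.63, 10.90 and 9.03 in WT CpG DCs. It was picked after its values were seen, and others on the list differed less. Mrgpra2b averaged 5.72 in both CpG groups, and Ltf 5.45 in DKO CpG against 5.80 in WT CpG DCs. CpG, averaged over genotypes, raised 2 and lowered 1 of the 12. Neutrophils carry Ccr1 themselves, and their part in the Ccr1 values was not tested.

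The mean of 12 B cell markers (of 13 listed) was 6.31 to 6.74 in DKO CpG, 6.51 to 6.57 in WT CpG, 7.00 to 7.18 in DKO unstimulated and 7.14 to 7.23 in WT unstimulated arrays. It was lower after CpG in every array, as was Ccr6, which B cells also carry. The same held for the means of the DC subset markers given below. Averaged over genotypes 7 of the 12 B cell markers fell, with a median change of -0.67. Between genotypes, averaged over stimulation, none of the 12 passed or had an unadjusted p under 0.05, with a median of -0.02. In each genotype comparison with or without CpG 1 of the 12 had an unadjusted p under 0.05 and none passed. Their part in the fall of Ccr6 was not tested. The 13 monocyte markers, some of whose cells carry Ccr2 and Cx3cr1, averaged 7.76 to 8.19 in DKO CpG, 7.89 to 8.20 in WT CpG, 7.56 to 7.89 in DKO unstimulated and 7.86 to 7.87 in WT unstimulated arrays, and of the 9 tested 2 rose and 2 fell after CpG. The mean of the 10 T cell markers lay between 5.59 and 6.27 in all arrays, and 2 of the 7 tested fell after CpG averaged over genotypes. For 11 NK cell markers the mean was 6.29 to 7.58 in DKO CpG and 6.68 to 7.21 in WT CpG arrays. Without stimulation it was 6.14 to 7.26 in DKO and 6.77 in WT arrays. Of the 10 tested 1 rose and 1 fell, with a median change of 0.44. The mean of 11 plasmacytoid DC markers lay between 7.11 and 7.72 in all arrays. Of these 2 rose and 1 fell, with a median of -0.03. Core DC markers averaged 10.5 to 10.8 in DKO CpG, 10.3 to 10.6 in WT CpG, 10.81 to 10.99 in DKO unstimulated and 10.6 to 10.8 in WT unstimulated arrays. Averaged over genotypes, 5 of the 9 tested fell after CpG and 1 rose. For the DC subset cDC1, the marker mean was 8.68 to 8.82 in DKO CpG and 8.34 to 8.57 in WT CpG arrays. Without stimulation it was 9.31 to 9.75 in DKO and 9.71 to 9.75 in WT arrays. The cDC2 mean was 8.28 to 8.48 in DKO CpG and 8.16 to 8.24 in WT CpG arrays. Without stimulation it was 8.68 to 8.80 in DKO and 8.65 in WT arrays. Of 12 cDC2 markers 5 fell and 1 rose.

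**Figure D4:**
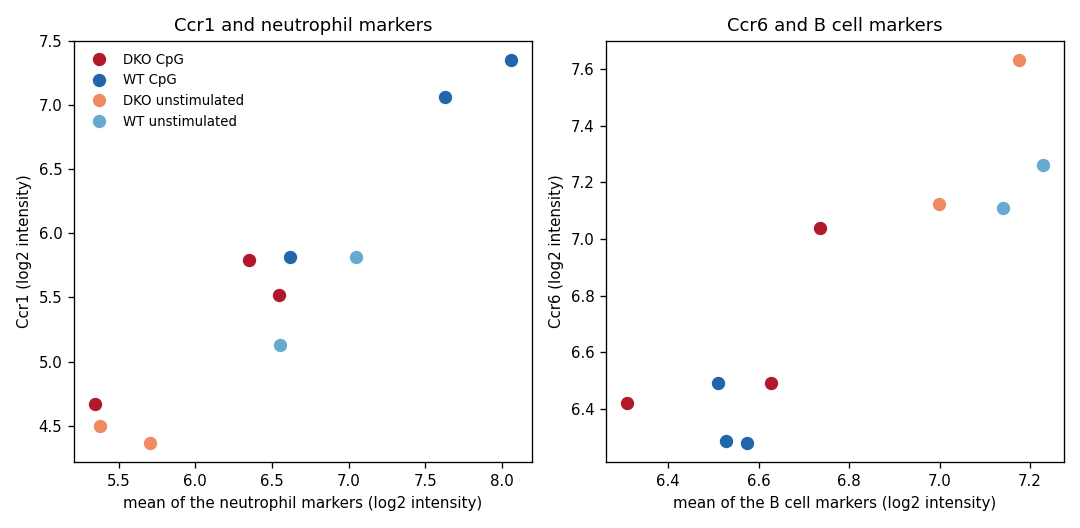
Ccr1 against the mean of the neutrophil markers (left) and Ccr6 against the mean of the B cell markers (right), both in log2 intensity with 1 point per array, coloured by group. The WT CpG arrays with the highest neutrophil means (7.63 and 8.06) have the highest Ccr1 (7.06 and 7.35), and the 6 CpG arrays lie below the 4 unstimulated arrays on both axes of the right panel.

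The ligands and partners of these receptors were read from lists chosen with earlier results known, each to be set against the 29.8% of all genes called for CpG averaged over genotypes. Of 12 ligand genes tested, 8 rose and 1 fell, with a median of 0.73. Cxcl10, a Cxcr3 ligand, rose by 2.26 (adjusted p = 0.00028) and Cxcl9, another, by 0.88 (0.000335), in samples where Cxcr3 itself fell. Cxcl10 measured 8.76, 7.46 and 8.74 in DKO CpG against 6.52 and 6.002 in DKO unstimulated DCs, and 9.23, 8.78 and 9.74 in WT CpG against 7.18 and 6.40 in WT unstimulated DCs. The Ccr1 ligand Ccl3 rose by 1.15 (adjusted p = 6.06e-05), and Ccl4, a related inflammatory chemokine, by 1.01 (0.000317). Each of these 4 kept its call without any single array. Ccl19 and Ccl21a were not analysed here, and Ccl20 lay too low to be tested.

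Averaged over genotypes, all 4 oxysterol enzymes changed after CpG, 2 rising and 2 falling. Ch25h, which hydroxylates cholesterol, rose by 0.80 (adjusted p = 0.00132) and Cyp7b1, which turns its product into the main Gpr183 ligand, rose by 1.55 (5.84e-05). Hsd3b7, which breaks that ligand down, fell by 0.66 (0.00251), and Cyp27a1, a mitochondrial sterol hydroxylase, fell by 1.40 (0.000945). All 4 passed in WT DCs (background 21.6%), and all but Hsd3b7 in DKO DCs (10.3%). The DKO calls of Cyp27a1 and Ch25h were lost without any 1 of several arrays, such as DKO unstimulated 2 (adjusted p = 0.11 and 0.221). Without WT unstimulated 1 the WT calls of Cyp27a1 (0.0516), Ch25h (0.0505) and Hsd3b7 (0.0694) were lost. Cyp7b1 measured 7.31, 6.64 and 7.21 in DKO CpG against 5.51 and 5.91 in DKO unstimulated DCs, and 7.70, 7.96 and 7.58 in WT CpG against 6.15 and 5.83 in WT unstimulated DCs. No array overlapped between treatments within a genotype. These are transcripts, and oxysterol levels were not measured.

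Among 6 other chemokine receptors tested, 1 rose and 3 fell. Xcr1, the receptor of cross-presenting cDC1, fell by 2.13 (adjusted p = 5.39e-06) and was at 5.97, 6.12 and 6.53 in DKO CpG against 7.97 and 7.87 in DKO unstimulated DCs, and at 5.23, 5.66 and 5.54 in WT CpG against 7.93 and 8.10 in WT unstimulated DCs. Beside it, 7 of 11 cDC1 markers fell and 1 rose, a list that also holds Xcr1. Cxcr5, which leads cells to B cell follicles, rose by 1.01 (0.000256). Ccr9 fell by 0.55 (0.0307) and Ccr3 by 1.66 (0.0322). The Ccr9 call was lost without WT unstimulated 1 (0.0987), WT unstimulated 2 (0.0743), DKO unstimulated 1 (0.113) or DKO CpG 1 (0.055). The Ccr3 call was lost without WT unstimulated 1 (0.0803), WT unstimulated 2 (0.0981), WT CpG 1 (0.055), WT CpG 2 (0.0682) or DKO unstimulated 1 (0.135). In DKO DCs none of Cxcr5, Ccr9 and Ccr3 passed, at 0.62 (adjusted p = 0.0572), -0.25 (0.581) and -0.76 (0.589). In WT DCs each passed, at 1.41 (0.000531), -0.85 (0.0281) and -2.57 (0.0292). The WT calls of Ccr9 and Ccr3 were lost without WT unstimulated 1 or WT unstimulated 2. The difference between the CpG effects of the genotypes passed for none of them. Of 4 atypical receptors 1 rose: Ccrl2, which binds chemerin without signalling, by 0.49 (0.0437), a call held only without WT CpG 3, DKO CpG 2 or DKO CpG 3 (adjusted p of 0.074 to 0.149 without each of the other 7 arrays).

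Of 15 receptors for lipids and other attractants, 3 rose and 3 fell. Fpr2, a formyl peptide receptor, rose by 2.34 (adjusted p = 0.000547), and Ptger4, the prostaglandin E2 receptor that in DCs aids migration towards Ccr7 ligands, rose by 0.80 (0.000124). Gpr34, a lysophosphatidylserine receptor, fell by 1.59 (1.65e-05). Cmklr1, the signalling chemerin receptor, fell by 0.53 (0.0167), a call lost without WT unstimulated 2 (0.0789) or DKO unstimulated 1 (0.0676). It fell by 0.99 in WT DCs (adjusted p = 0.00591), while the change in DKO DCs was -0.07 (0.876). The difference between these effects was 0.92 (unadjusted p = 0.00819, adjusted p = 0.761).

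Downstream of the receptors, 2 of 20 signalling genes rose and 9 fell, with a median of -0.39. Rgs3, Rgs14 and Rgs2, which speed the switching off of G proteins, fell by 1.04 (adjusted p = 1.65e-05), 0.99 (3.74e-05) and 0.65 (0.000181). Rgs1, of the same family, went the other way. Its mean was 12.17 in DKO CpG against 11.92 in DKO unstimulated DCs, and 12.19 in WT CpG against 11.87 in WT unstimulated DCs. Arrb1, an arrestin that uncouples receptors, fell by 1.13 (0.00014). Of 29 genes of the migration machinery 6 rose and 9 fell, with a median of -0.07. Pik3r5, a regulatory subunit of PI3-kinase gamma, and Fscn1, which bundles actin in mature DCs, each rose by 1.75 (4.68e-06 and 2.92e-05). Myo1f and Myo9b, unconventional myosins, fell by 1.69 (4.54e-05) and 0.90 (0.000165). No gene of these 7 lists passed between DKO and WT after CpG or averaged over stimulation.

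**Figure D5:**
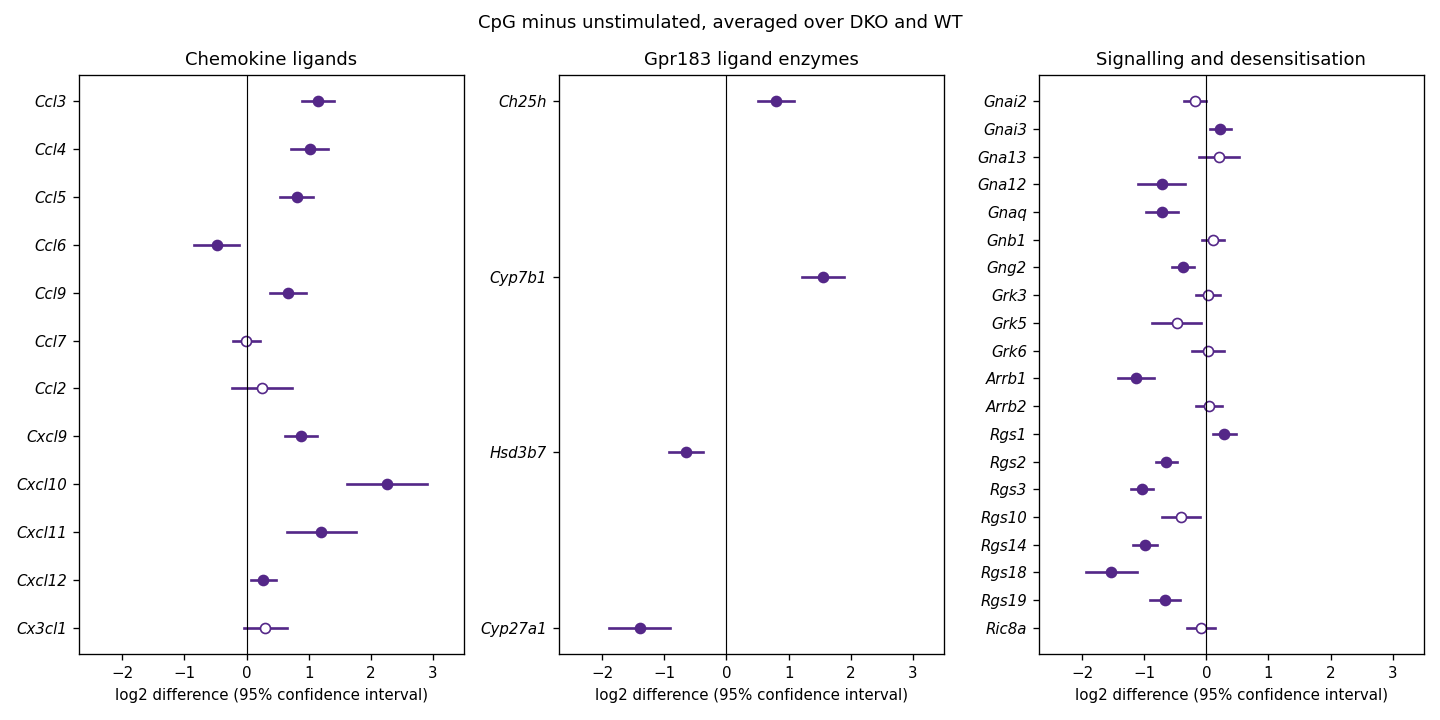
CpG minus unstimulated, averaged over DKO and WT, for the tested chemokine ligands (left), the oxysterol enzymes that make and remove the Gpr183 ligand (middle) and genes of receptor signalling and desensitisation (right). The x axis is the log2 difference with its 95% confidence interval, and filled points have an adjusted p under 0.05. Most ligands lie to the right of 0 with Cxcl10 farthest (2.26), the enzymes split, and Rgs3, Rgs14 and Arrb1 lie near -1.

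The tested genes whose values were most like those of each receptor over the 10 arrays were named by Pearson's r, which describes arrays that share groups and title series. Nearest to Ccr7 were Pfkfb3 (r = 0.998), a switch of glycolysis, and Tnfrsf9 (0.992), a costimulatory receptor of the TNF receptor family. Nearest to Ccr1 were Mmp8 (0.974), a collagenase that is also on the neutrophil list, and Rab44 (0.967). Nearest to Cx3cr1 were Hdac10 (0.989) and Prr5 (0.985), to Ccr6 Vps13a (0.990) and Spns3 (0.989), to Ccr2 Lrsam1 (0.972) and Nudt6 (0.964), and to Cxcr3 Btrc (0.962) and Hs1bp3 (0.961). Cxcr4 was most like the heat-shock chaperones Dnajb1 (0.958) and Hspd1 (0.956), and Gpr183 like the interferon-inducible Ifi214 (0.939) and Smug1 (0.935).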

How the data were processed

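RNA of splenic CD11c+ DCs was read on a mouse whole-transcript Affymetrix array (Gene 2.0 ST), per the labels. Each probe set has a log2 value, deposited by the authors after RMA, and the submitters' processing notes name Affymetrix Expression Console. The sources used here do not give versions, probe annotation, genome build or whether all arrays were normalized together. A label names an amplification kit for a first batch without saying which samples it holds, so the 2 number series of the sample titles stood in for it.

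Of 41345 probe sets, 23521 had 1 gene symbol, 1814 several and 16010 none, and 23328 also matched the GRCm38.p6 gene table by identifier. A gene was read by the probe set with 1 symbol and the highest mean over 10 arrays (22180 genes) and tested where it exceeded the array median in at least 2 arrays (13371 genes). Group means of the 4 groups, DKO being the C3ar1-/-C5ar1-/- genotype, were fitted over all 10 arrays with limma 3.58.1 in R 4.3.3 (lmFit and eBayes, 6 residual and 4.49 prior degrees of freedom). Tests were two-sided, adjusted by Benjamini-Hochberg over all tested genes, with calls made below 0.05. The number of arrays limits the precision, and intervals are at 95%. The code was tested on simulated data. Figures used matplotlib 3.10.9 in Python 3.11.15.

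The text names all 8 receptors in every comparison, the targeted genes, up to 4 called genes with the smallest p per list for CpG averaged over genotypes, up to 2 per list for DKO minus WT averaged over stimulation, and the 2 genes most like each receptor. Genes beside these, such as S100a8 and Rgs1, were chosen after their values were seen. The receptors, lists and tests were chosen with earlier results of these data known. Alternatives were other filters on low values, trend and robust eBayes, array weights, quantile normalization, the mean of all probe sets of a gene, fits of the compared groups alone, the title series as a block, Y-linked signal as a covariate, and each array left out. Fits of title series 1 alone and of the arrays with no Y-linked signal were added after seeing the data.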

Additional observations from a re-analysis of the deposited data

Results flagged for a closer look

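Y-linked genes, which lie outside the receptors and their pathway lists and entered their fits only as a covariate, gave a signal in 3 DKO arrays above every WT array. The mean of Eif2s3y, Kdm5d and Uty was 7.75 in DKO CpG 1, 7.33 in DKO CpG 2 and 7.93 in DKO unstimulated 1, against 3.39 to 3.40 in the other 2 DKO arrays and 3.21 to 3.68 in the 5 WT arrays. Xist measured 4.32 to 4.91 in these 3 arrays and 10.4 to 10.8 in the other 7. The sex of the mice is not given in the sources used here. By these genes the 3 arrays read as male and the other 7, both WT groups among them, as female. Each comparison of DKO with WT over all arrays is thus partly one of male with female samples. The part of the Y-linked signal, or of sex, in the DKO differences of Ccr1 and Ccr6 was not tested. The covariate fit and the fit without the 3 arrays cannot test it, since within DKO the signal cannot be told apart from the title series. Averaged over stimulation, both fits take the DKO level from DKO CpG 3 and DKO unstimulated 2.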

How the results depend on the processing

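The CpG changes of Ccr7 kept their direction and call in both genotypes under every alternative run, as did those of Cx3cr1 in WT DCs. Counts of called genes moved by over 1.5 times as follows. CpG in DKO gave 1377 genes, against 402 in a fit of the DKO arrays alone and 408 over the arrays with no Y-linked signal. DKO minus WT unstimulated gave 1 gene, against 12 in a fit of those arrays alone, 2 with the title series as a block, 382 with Y-linked signal as a covariate, 23 within title series 1 and 250 over the arrays with no Y-linked signal. DKO minus WT after CpG gave 16 genes, against 76 with trend and robust eBayes, 125 with array weights, 3 in a fit of those arrays alone, 296 with the block, 738 with the covariate, 90 within title series 1 and 723 with no Y-linked signal. DKO minus WT averaged over stimulation gave 13 genes, against 20, 33, 50 and 869 with trend and robust eBayes, array weights, the block and the covariate, 59 within title series 1 and 987 with no Y-linked signal. The difference of CpG effects gave 1 gene (756 at an unadjusted p under 0.05), against 0 with the stricter filter (565), quantile normalization (764), the block (984) and no Y-linked signal (1387), and 2 within title series 1. Under quantile normalization the genes called after CpG were 3 higher and 9 lower, against 7 and 9 in the fit as reported, and averaged over stimulation 5 and 14, against 5 and 8. The causes were not tested. Leaving out each array gave 423 to 1909 genes for CpG in DKO, 1277 to 3226 for CpG in WT, 2935 to 4288 for CpG averaged, 1 to 2 for DKO minus WT unstimulated, 2 to 267 after CpG, 1 to 71 averaged and 0 to 1 for the difference of CpG effects. The lowest and highest CpG counts came without DKO unstimulated 2 and DKO CpG 3 in DKO, WT unstimulated 2 and DKO CpG 3 in WT, and WT unstimulated 1 and DKO CpG 3 averaged. After CpG, the 2 genes came without WT CpG 1, WT CpG 2 or DKO CpG 2, and both 267 and 71 came without DKO CpG 1.

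Of 560 values of the receptors with an array left out, 480 kept direction and side of the threshold, 47 lost a call, 6 gained one and 27 changed sign; over the other settings the numbers were 437, 14, 15 and 14 of 480, and over the added ones 82, 6, 11 and 13 of 112. The averaged CpG call of Ccr1 was lost with trend and robust eBayes (adjusted p = 0.0503) and over the arrays with no Y-linked signal (0.201), and that of Gpr183 with no filter (0.0698) and quantile normalization (0.0588). Every receptor value that changed sign was uncalled before and after. All in log2 units, DKO minus WT, the changed signs were these. With the title series as a block, Ccr6 gave -0.022, Cxcr4 0.0106 and Gpr183 -0.155 unstimulated, Cxcr4 0.0264 averaged, and Ccr2 -0.142 in the difference of CpG effects. With the Y-linked covariate, Ccr2 gave -0.147 unstimulated, -0.201 after CpG, -0.174 averaged and -0.0539 in the difference of CpG effects, Cxcr3 -0.0803 and Cxcr4 -0.161 after CpG, and Gpr183 0.14 averaged. Cxcr3 after CpG gave -0.0439 with array weights and -0.0264 with quantile normalization. Over the arrays with no Y-linked signal, Ccr2 gave -0.287 unstimulated, -0.0599 after CpG and -0.174 averaged, Cxcr4 -0.231 after CpG, Cx3cr1 -0.0272 unstimulated and Gpr183 0.14 averaged, and the CpG change of Cmklr1 in DKO was 0.0764. Within title series 1, Ccr2 gave -0.322 in the difference of CpG effects, Ccr6 -0.0635 and Gpr183 -0.269 unstimulated, and Cxcr3 0.0318 unstimulated, -0.0135 after CpG, 0.0092 averaged and -0.0453 in the difference. With 1 array left out, Ccr2 spanned -0.29 to 0.37 unstimulated, -0.0093 to 0.10 after CpG, -0.12 to 0.21 averaged and -0.32 to 0.34 in the difference of CpG effects. Ccr6 spanned -0.0635 to 0.45 unstimulated and -0.15 to 0.36 in the difference. Cxcr3 spanned -0.28 to 0.0318 unstimulated, -0.10 to 0.11 after CpG, -0.14 to 0.0176 averaged and -0.0286 to 0.28 in the difference. Cxcr4 spanned -0.0909 to 0.18 after CpG and -0.125 to 0.0098 averaged, Cx3cr1 -0.0272 to 0.17 and Gpr183 -0.27 to 0.32 unstimulated. The CpG change in DKO spanned -0.0789 to 0.51 for Gpr183, -1.74 to 0.22 for Ccr3 and -0.38 to 0.24 for Cmklr1. No paired analysis was possible because the labels give no replicate numbers shared across groups. Signal near the array median limits Ccr1 and Ccr2. Among the partner genes, signal near or below it also limits Cmklr1 after CpG, Xcr1 and Ccr9 in WT CpG DCs, and Ch25h without stimulation.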
